A study of Mus musculus with 5 samples.

Results

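Genes of adrenergic, angiotensin and endothelin signalling were examined in hearts of calcineurin transgenic mice. The group held 8 genes, chosen by name for their place in these pathways and not by any measured value, of 19061 gene rows in all. They were the adrenergic receptors Adrb1, Adra1a and Adra1b, the receptor kinase Grk5, the angiotensin genes Agtr1a and Ace, and the endothelin genes Edn1 and Ednra. All 8 had reads in every library and passed the filter on low values.

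Bulk RNA sequencing was done on whole hearts of C57BL/6 mice at postnatal day 158. The mice had been given JIB-04 (3 libraries) or vehicle (2 libraries), in 3 doses a week begun at 4 weeks of age, with JIB-04 at 50 mg/kg. JIB-04 is a drug that inhibits Jumonji enzymes, which take methyl marks off histone tails. Both groups carried the calcineurin transgene (MHC-CnATg), which a myosin heavy chain promoter drives in cardiomyocytes and which produces severe cardiac hypertrophy. Hearts without the transgene were not analysed here, so every value stands on that background. Nothing in the labels states that the libraries are from different animals, and p-values then measure only the spread between these libraries. For JIB-04 replicate 3 the transgene is spelled with another letter in the title only, and its genotype label matches the others.

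Noradrenaline, adrenaline, angiotensin II and endothelin act on the heart through receptors coupled to G proteins. The beta adrenergic receptors act through Gs, adenylyl cyclase and cAMP to raise the rate and force of contraction. The alpha-1 adrenergic, angiotensin and endothelin A receptors act mainly through Gq and phospholipase C, a route that drives calcium release and hypertrophic growth. Calcineurin is a calcium dependent phosphatase that activates NFAT transcription factors, and it lies downstream of calcium in the same cells.

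Depth was similar across libraries, at 32152168 to 37002846 reads recovered from the deposited CPM, counts scaled by library size. A member had between 551 and 11902 reads in a library, so that the 95% counting interval reached 1.80% to 8.44% to either side. All 8 cardiomyocyte markers were present in every library, with a summed level of 61720 to 75425 CPM in JIB-04 hearts and 70950 to 80693 CPM in vehicle hearts. Ppp3ca, the gene of the calcineurin catalytic subunit that the transgene encodes, stood at 4341 to 7275 CPM in JIB-04 hearts and 6082 to 8022 CPM in vehicle hearts. The fold changes below are on the log2(CPM + 1) scale, JIB-04 minus vehicle, from limma with Benjamini-Hochberg adjustment over 14414 tested genes, and a call needed an adjusted p under 0.05.

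The promoters of 4 members are shown because calcineurin acts on transcription through NFAT and because the promoters show how unlike the members are at their starts. Each stretch is the 250 bases before the RefSeq start (GRCm38.p6, the assembly of mm10), written 5′ to 3′ on the gene's strand. Capitals mark matches to the motifs searched. Adra1b lies on chr11:43901238-43901487 (minus strand), Ace on chr11:105967698-105967947 (plus), Grk5 on chr19:60889499-60889748 (plus) and Ednra on chr8:77724453-77724702 (minus).
Adra1b: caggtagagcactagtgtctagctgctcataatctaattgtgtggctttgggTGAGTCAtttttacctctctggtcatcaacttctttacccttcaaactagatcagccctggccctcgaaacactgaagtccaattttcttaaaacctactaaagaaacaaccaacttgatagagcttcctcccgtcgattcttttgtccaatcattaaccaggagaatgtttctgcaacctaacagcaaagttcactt
Ace: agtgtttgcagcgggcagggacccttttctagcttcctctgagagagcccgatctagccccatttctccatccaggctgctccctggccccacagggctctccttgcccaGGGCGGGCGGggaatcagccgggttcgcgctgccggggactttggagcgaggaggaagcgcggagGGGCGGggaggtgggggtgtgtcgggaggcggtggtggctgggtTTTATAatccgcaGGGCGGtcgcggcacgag
Grk5: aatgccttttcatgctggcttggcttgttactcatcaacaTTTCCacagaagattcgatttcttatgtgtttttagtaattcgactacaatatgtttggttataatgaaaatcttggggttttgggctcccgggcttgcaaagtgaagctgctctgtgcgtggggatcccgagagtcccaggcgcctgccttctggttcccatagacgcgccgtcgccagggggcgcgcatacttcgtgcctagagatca
Ednra: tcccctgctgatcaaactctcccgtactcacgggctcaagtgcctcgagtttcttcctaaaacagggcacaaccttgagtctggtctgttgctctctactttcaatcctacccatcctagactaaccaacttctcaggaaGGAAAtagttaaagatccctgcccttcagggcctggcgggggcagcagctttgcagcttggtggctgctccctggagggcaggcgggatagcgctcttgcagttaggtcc

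Motifs were searched on both strands, and a match describes the letters only. The NFAT core GGAAA was in the Grk5 window, as TTTCC from base -210 relative to the start, and in the Ednra window from base -110. This short core was in 55.6% of 32851 promoter windows of the same length. The AP-1 motif TGACTNA, present in 11.7% of windows, was in that of Adra1b as TGAGTCA from base -198. Ace was the 1 member of the 4 with GC boxes (GGGCGG, in 32.7% of windows), from bases -140, -136, -75 and -18, the first 2 of which overlap. Its window also held the TATA box TATAAA, read on the opposite strand as TTTATA from base -31, as did 12.4% of windows. The GATA motif GATAAG, in 6.55% of windows, was in none of the 4. The G and C content was 67.2% in the Ace window, 54.8% in that of Ednra, 49.6% in that of Grk5 and 41.6% in that of Adra1b. Adrb1 and Edn1 had RefSeq starts more than 10 bases from the gene start in the files, and their windows were not used. Adra1a and Agtr1a are named without a promoter.

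No member differed between JIB-04 and vehicle hearts beyond the spread between libraries. The call was passed by 0 of the 8 members, and by 0% of all tested genes. At an unadjusted p under 0.05 the count was also 0 of 8, against 928 genes or 6.44% of those tested (3.93% higher and 2.51% lower). The libraries of the groups overlapped for all 8 members, while for 22.8% of tested genes they did not. The estimates were above 0 for 3 members and under 0 for 5, against 46.9% and 53.1% of tested genes, with a median of -0.04 against -0.01 over all tested genes. A p that misses the threshold does not show that the levels are alike, so each member's values and 95% interval are given.

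Adrb1 encodes the beta-1 adrenergic receptor, the main beta receptor of the mouse heart (mm10 chr19:56722371-56724862, plus strand). It stood at 23.3, 18.3 and 21.6 CPM in JIB-04 hearts and at 21.3 and 21.3 CPM in vehicle hearts. The JIB-04 libraries lay on both sides of the vehicle libraries, which were nearly equal. The log2 fold change was -0.02 (SE 0.11, 95% interval -0.28 to 0.24, limma adjusted p = 0.980).

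Adra1a encodes the alpha-1A adrenergic receptor (chr14:66635250-66771168, plus strand). It had 53.7, 32.8 and 42.3 CPM in JIB-04 hearts, against 48.1 and 54.3 CPM in vehicle hearts. JIB-04 replicates 2 and 3 were under both vehicle libraries and JIB-04 replicate 1 lay between them. With means of 42.9 ± 10.5 CPM in JIB-04 hearts (SD, n = 3) and 51.2 ± 4.4 CPM in vehicle hearts (SD, n = 2), its log2 fold change of -0.27 was the farthest from 0 among the members (SE 0.19, 95% interval -0.72 to 0.17, limma adjusted p = 0.831).

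Adra1b, the gene of the alpha-1B adrenergic receptor, couples to the same Gq route (chr11:43774604-43901237, minus strand). Its levels were 25.6, 17.7 and 20.8 CPM in JIB-04 hearts and 20.5 and 21.5 CPM in vehicle hearts. The JIB-04 libraries again held both the highest and the lowest value. The means were 21.3 ± 4.0 CPM in JIB-04 hearts and 20.98 ± 0.67 CPM in vehicle hearts, with a log2 fold change of 0.01 (SE 0.15, 95% interval -0.34 to 0.36, limma adjusted p = 0.992).

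Grk5 encodes a G protein-coupled receptor kinase that phosphorylates active receptors such as the beta-1 receptor and so turns their signal down (chr19:60889748-61092555, plus strand). It had 197.6, 196.5 and 200.9 CPM in JIB-04 hearts and 203 and 188 CPM in vehicle hearts. It was the steadiest member, with all JIB-04 libraries between the vehicle libraries. The log2 fold change was 0.02 (SE 0.06, limma adjusted p = 0.962), and its 95% interval of -0.13 to 0.17 corresponds to a fold of 0.913 to 1.12. No other member's interval lay within 15 percent of equality, and that of Grk5 was not within 10 percent.

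Agtr1a encodes the main type 1 angiotensin II receptor of the mouse (chr13:30336355-30382867, plus strand). Its levels were 51.5, 29.1 and 42.8 CPM in JIB-04 hearts, against 41.1 and 48.9 CPM in vehicle hearts. The highest and the lowest of the 5 libraries were both JIB-04 libraries. It had the widest interval of the members, -0.69 to 0.37 around a log2 fold change of -0.16 (SE 0.22, limma adjusted p = 0.898).

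Ace encodes angiotensin converting enzyme, a peptidase of the endothelial surface that makes angiotensin II and breaks down bradykinin (chr11:105967944-105989964, plus strand). It had 203, 319 and 256 CPM in JIB-04 hearts and 221 and 236 CPM in vehicle hearts. JIB-04 replicates 2 and 3 were above both vehicle libraries and JIB-04 replicate 1 was under both. The means were 259 ± 58 CPM in JIB-04 hearts and 229 ± 10.7 CPM in vehicle hearts, with a log2 fold change of 0.16 (SE 0.17, 95% interval -0.26 to 0.57, limma adjusted p = 0.882). Ace is also the only member that overlaps another gene row, Gm11651 on the opposite strand, which had a mean of 0.0114 CPM.

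Edn1 encodes the precursor of endothelin-1, a constrictor peptide made chiefly by endothelial cells (chr13:42301269-42307989, plus strand). It stood at 22.8, 14.8 and 20.6 CPM in JIB-04 hearts, against 21.02 and 24.5 CPM in vehicle hearts. JIB-04 replicates 2 and 3 lay under both vehicle libraries, and JIB-04 replicate 1 lay between them. The log2 fold change was -0.24 (SE 0.18, 95% interval -0.66 to 0.19, limma adjusted p = 0.840).

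Ednra, the gene of the endothelin A receptor found on cardiomyocytes and vascular smooth muscle, lies on chr8:77663028-77724452 (minus strand). Its levels were 192, 137 and 166 CPM in JIB-04 hearts and 163 and 179 CPM in vehicle hearts. JIB-04 replicate 1 was the highest library and JIB-04 replicate 2 the lowest. The log2 fold change was -0.06 (SE 0.14, 95% interval -0.39 to 0.26, limma adjusted p = 0.938).

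**Figure D1:**
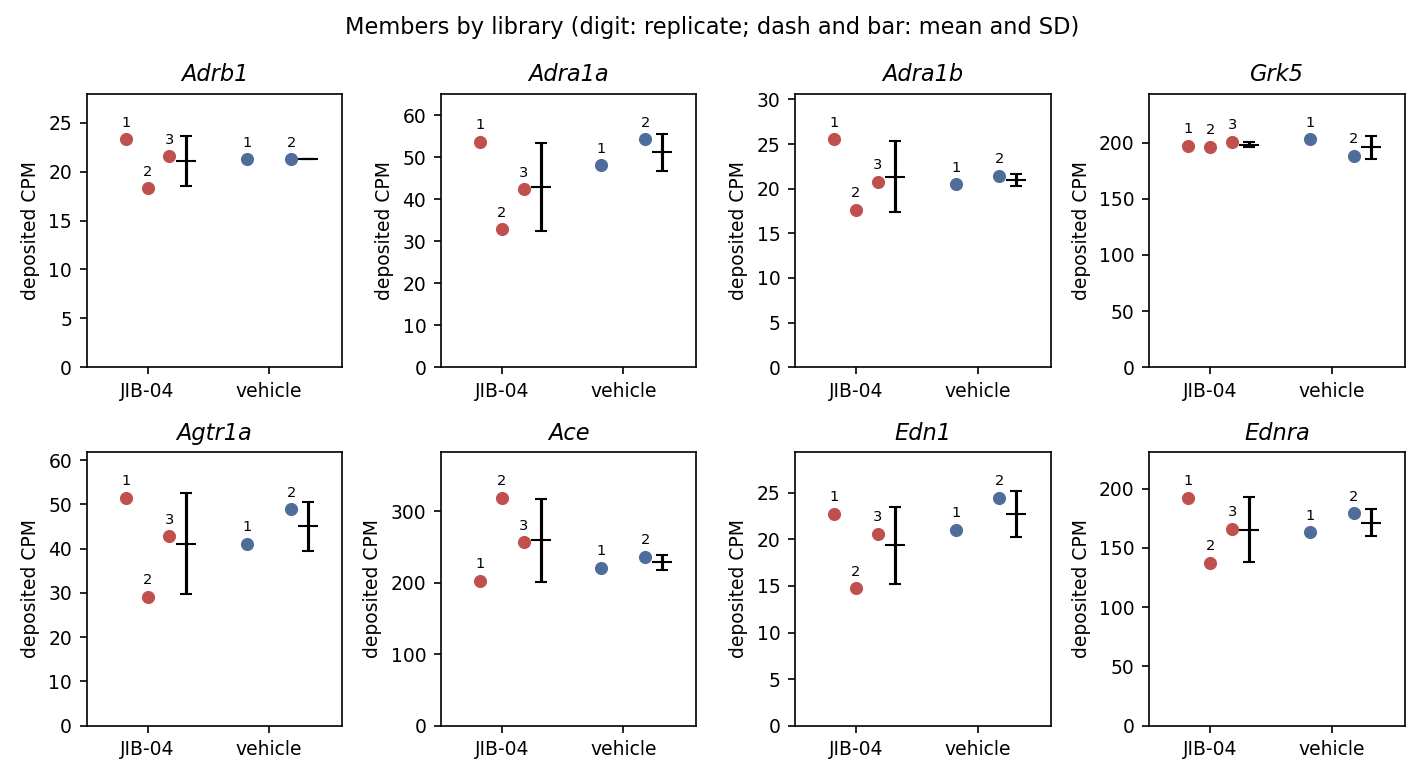
Deposited CPM of the 8 members in each library, with JIB-04 (n = 3) left of vehicle (n = 2), where points are libraries and bars are means with SD. In every panel the points of the groups overlap, and the Grk5 points lie closest together.

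**Figure D2:**
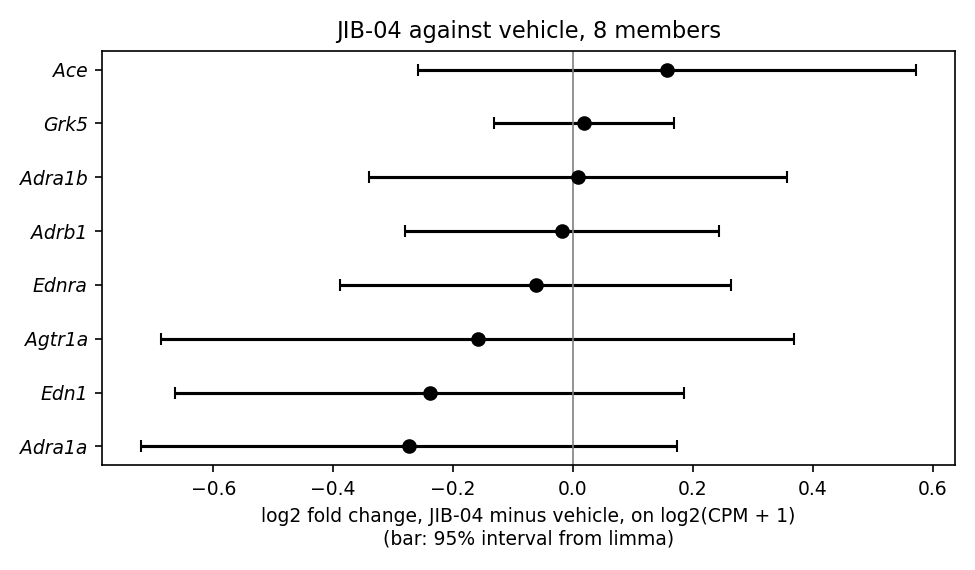
Log2 fold change of each member, JIB-04 minus vehicle, on the log2(CPM + 1) scale, with its 95% interval from limma. All 8 intervals include 0, from -0.27 for Adra1a to 0.16 for Ace.

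The distance of these estimates from 0 was not small for every member. In size, the estimate of Adra1a stood at the 90.2 percentile of all tested genes and that of Edn1 at the 87.2 percentile. Agtr1a and Ace followed, at percentiles 75.6 and 75.2, and Ednra stood at 39.2. Those of Grk5, Adrb1 and Adra1b were among the smallest, at 12.6, 12.1 and 5.61. The spread within groups was wide as well. The residual SD of the members had a median of 0.239 on the log2 scale, against 0.108 over all tested genes and 0.0824 over the 6143 genes within the members' range of mean CPM. It ran from 0.0465 for Grk5 to 0.349 for Agtr1a.

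Much of this spread lay between JIB-04 replicates 1 and 2. JIB-04 replicate 2 was the lowest of the 5 libraries for 6 of 8 members (Adrb1, Adra1a, Adra1b, Agtr1a, Edn1 and Ednra), as it was for 29.5% of tested genes, and the highest for Ace. JIB-04 replicate 1 was the highest for 4 (Adrb1, Adra1b, Agtr1a and Ednra), as it was for 23.2% of tested genes, and the lowest for Ace. Among the JIB-04 libraries, the order of replicate 1 above 3 above 2 was held by those same 6 genes and by 24.9% of tested genes. Ace had the opposite order, as did 19.6% of tested genes, and Grk5 had neither.

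Markers of cell types differed between the same libraries. Relative to the 5-library mean, the 8 members averaged 0.13, -0.22 and 0.0056 on the log2 scale in JIB-04 replicates 1, 2 and 3, and -0.0080 and 0.093 in vehicle replicates 1 and 2. The 8 cardiomyocyte markers averaged 0.07, -0.22 and -0.03 in the same JIB-04 libraries, and 0.01 and 0.17 in the vehicle libraries. Both sets were lowest in JIB-04 replicate 2, the members highest in JIB-04 replicate 1 and the cardiomyocyte markers in vehicle replicate 2. The 8 endothelial markers, genes of the cells known to carry Ace, averaged -0.19, 0.21 and -0.00 in JIB-04 libraries and -0.05 and 0.02 in vehicle libraries. They were highest in JIB-04 replicate 2 and lowest in JIB-04 replicate 1, as for Ace. Edn1, which the same cells chiefly make, did not share that order and was lowest in JIB-04 replicate 2 and highest in vehicle replicate 2. The 10 markers of vascular smooth muscle and pericytes, cells that carry Ednra and Agtr1a, averaged -0.088, 0.051 and 0.00 in JIB-04 libraries and 0.036 and 0.00083 in vehicle libraries. By this average they too were highest in JIB-04 replicate 2 and lowest in JIB-04 replicate 1, the opposite of Ednra and Agtr1a. By summed CPM the order was not the same. The sum was lowest in JIB-04 replicate 2, as for Ednra and Agtr1a, and highest in vehicle replicate 2. That order depended on 1 gene of the 10, Abcc9, the largest part of each sum. Abcc9 had 431, 300 and 329 CPM in JIB-04 hearts and 398 and 393 CPM in vehicle hearts.

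The summed endothelial markers stood at 784, 1023 and 892 CPM in JIB-04 hearts and 854 and 898 CPM in vehicle hearts. The vascular smooth muscle and pericyte markers summed to 911, 853 and 862 CPM in JIB-04 hearts and 913 and 919 CPM in vehicle hearts. The 8 fibroblast markers summed to 2189, 2843 and 2810 CPM in JIB-04 hearts, against 2176 and 1922 CPM in vehicle hearts. The 6 red blood cell markers summed to 851, 1675 and 1229 CPM in JIB-04 hearts, against 3459 and 2284 CPM in vehicle hearts. Their sums did not overlap between the groups. Nor did those of the fibroblast markers and of the vascular smooth muscle and pericyte markers, which were separated narrowly. The vascular separation depended on Abcc9. By the average on the log2 scale, the groups overlapped for both the fibroblast and the vascular list. The fibroblast average was -0.099 in JIB-04 replicate 1, under the -0.092 of vehicle replicate 1. For single genes, the groups did not overlap in 22.8% of those tested. All 6 red blood cell markers had estimates under 0, with a median log2 fold change of -0.99, and none passed the call. No marker of these lists was at 0 in any library, and their part in the members' values was not tested. In whole hearts, fewer cells of a type and less RNA per cell cannot be told apart.

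**Figure D3:**
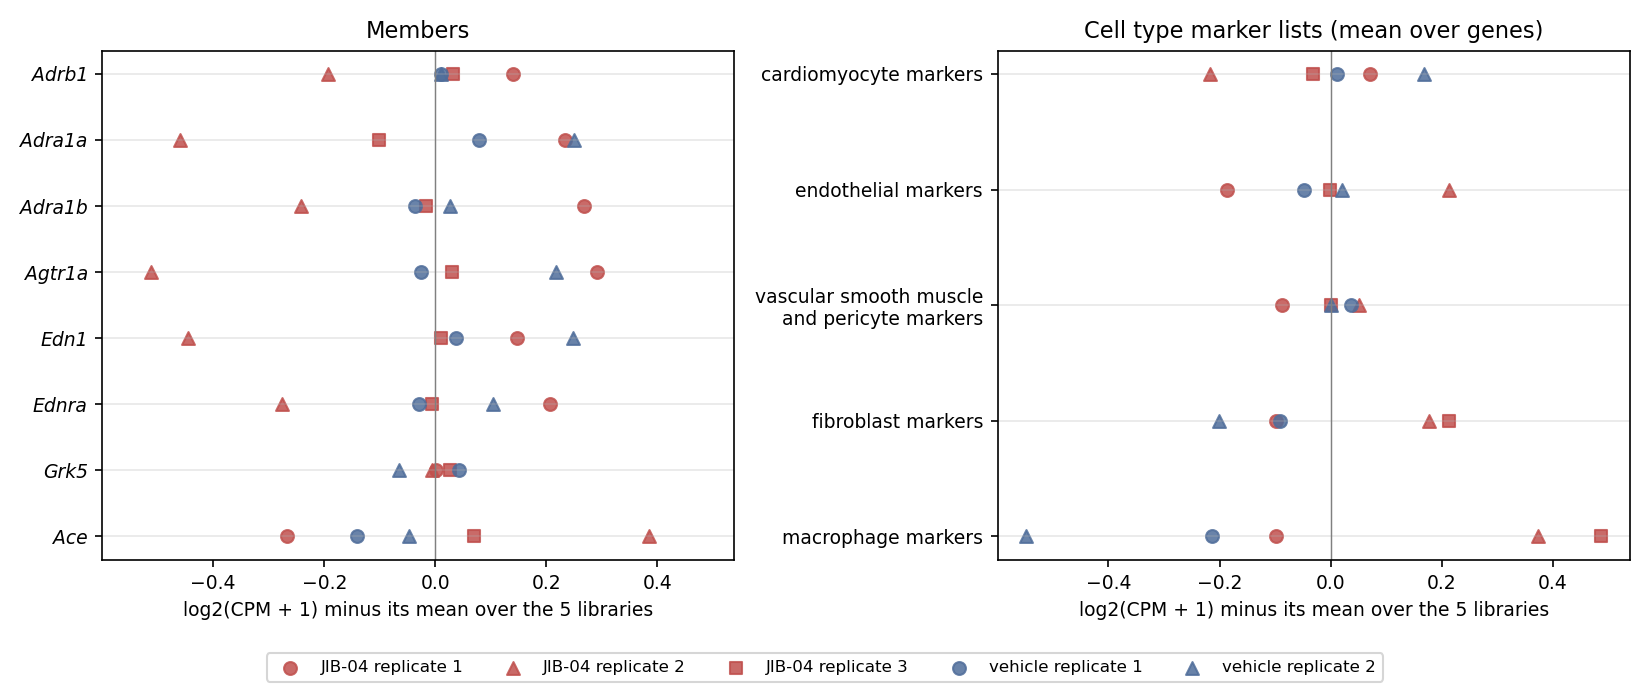
Log2(CPM + 1) of each member (left) and mean over the genes of each cell type marker list (right), minus the mean over the 5 libraries, where each point is 1 library. JIB-04 replicate 2 lies at the left end for 6 members and the cardiomyocyte markers, and at the right end for Ace and the endothelial markers.

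Single JIB-04 libraries set the sign of several estimates. Without JIB-04 replicate 2, the log2 fold change was 0.08 for Adrb1, 0.07 for Agtr1a, 0.06 for Ednra and -0.0040 for Ace, each of the opposite sign to that with all libraries, and it was -0.098 for Adra1a and -0.064 for Edn1. Without JIB-04 replicate 1, it was -0.45 for Adra1a (unadjusted p = 0.0122, adjusted p = 0.155 by limma) and 0.32 for Ace (unadjusted p = 0.0255, adjusted p = 0.206 by limma). In that fit 2 of 8 members had an unadjusted p under 0.05, beside 18.8% of tested genes. That fit called 29 genes, 0.202% of those tested, none of them a member. Adra1b was at -0.12 without JIB-04 replicate 1 and at 0.13 without JIB-04 replicate 2. Leaving out vehicle replicate 2 gave 0.0046 for Ednra and -0.036 for Grk5.

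Levels of different members were compared per kilobase of exon (CPM per kb, mean ± SD, n = 3 for JIB-04 and n = 2 for vehicle). Ace and Ednra were at the top, with 49.0 ± 11 CPM per kb for Ace in JIB-04 hearts and 43.2 ± 2.0 in vehicle hearts. Ednra was at 45.6 ± 7.6 CPM per kb in JIB-04 hearts and 47.2 ± 3.1 in vehicle hearts, and the order of these 2 genes differed between the groups by less than the spread. Grk5 came next at 29.3 ± 0.34 CPM per kb in JIB-04 hearts and 29.0 ± 1.6 in vehicle hearts.

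Agtr1a followed at 15.5 ± 4.3 CPM per kb in JIB-04 hearts and 17.0 ± 2.1 in vehicle hearts. Edn1, the only ligand among the members, was at 9.06 ± 1.94 CPM per kb in JIB-04 hearts and 10.6 ± 1.1 in vehicle hearts. The 3 adrenergic receptors were the lowest members. In JIB-04 hearts they lay within their spread of each other and Adrb1 within that of Edn1, while in vehicle hearts Adra1b was under the other two by more than the spread. Adrb1 was at 7.14 ± 0.86 CPM per kb in JIB-04 hearts and 7.20 ± 0.0011 in vehicle hearts. Adra1b was at 6.31 ± 1.18 CPM per kb in JIB-04 hearts and 6.20 ± 0.20 in vehicle hearts, and Adra1a at 6.27 ± 1.53 in JIB-04 hearts and 7.47 ± 0.64 in vehicle hearts. Lengths come from GENCODE, whose model of Adrb1 is longer than the span of that gene in the files. The place of Adra1a depends on its length. Over its longest transcript alone, an alternative chosen after seeing the data, its mean over the libraries was 10.8 CPM per kb, against 6.75 over all its exons.

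Among the other receptors and peptides, the ligand gene Edn3 reached 28.4 ± 7.6 CPM per kb in JIB-04 hearts and 39.0 ± 3.2 in vehicle hearts, above Edn1 in both groups. The endothelin B receptor gene Ednrb was at 5.74 CPM per kb in JIB-04 hearts and 5.30 in vehicle hearts. Adra1d, the alpha-1D receptor, was at 2.20 CPM per kb in JIB-04 hearts and 1.93 in vehicle hearts. Agt, the precursor of angiotensin, was at 0.776 CPM per kb in JIB-04 hearts and 0.837 in vehicle hearts. Agtr1b and Agtr2, the other angiotensin II receptors, had at most 1 and 2 reads in any library.

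**Figure D4:**
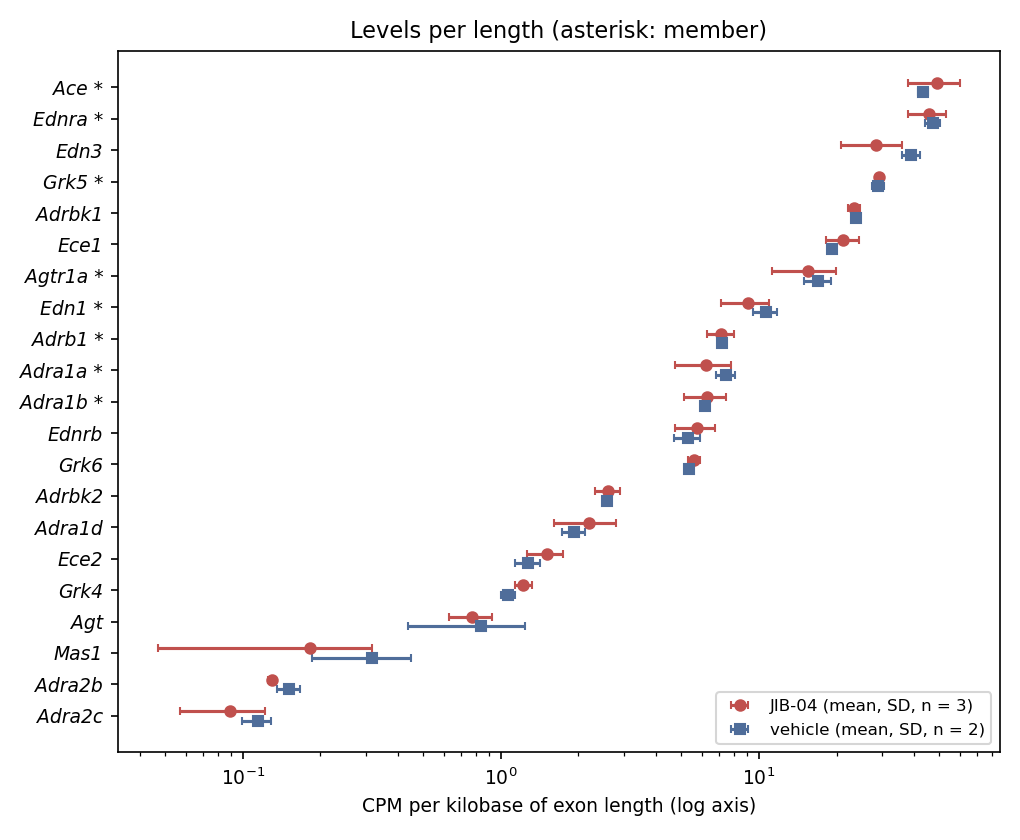
Mean CPM per kb of exon (log axis) for the members and related genes, with SD, JIB-04 above vehicle in each row. Ace and Ednra are the highest members and the 3 adrenergic receptors the lowest.

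Ratios of genes within a library were taken on the log2(CPM + 1) scale, so that library scaling enters them only through the pseudocount. In all 7 were compared, each a member against a partner gene, and 4 are given here. That of Agtr1a to Agtr1b is left out because Agtr1b, with at most 1 read in a library, lets the pseudocount set the denominator. With 3 against 2 libraries there are 10 splits, so the smallest exact two-sided p is 0.1. The groups did not overlap for Adra1a over Adra1b, with log2 ratios of 1.04, 0.86 and 0.99 in JIB-04 hearts and 1.19 and 1.30 in vehicle hearts. The mean log2 ratio was 0.96 ± 0.10 in JIB-04 hearts and 1.25 ± 0.08 in vehicle hearts, a difference of -0.28 (exact permutation p = 0.1, adjusted over the 7 ratios 0.7). All 3 JIB-04 libraries were under both vehicle libraries, and the difference did not pass the correction. It ran from -0.34 to -0.23 when any 1 library was left out.

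The groups overlapped for the other 6 ratios. Edn1 over Ece1, the gene of the protease that releases mature endothelin-1, averaged -2.40 ± 0.45 in JIB-04 hearts and -2.02 ± 0.10 in vehicle hearts (difference -0.38, exact permutation p = 0.4). Leaving out JIB-04 replicate 1 gave a difference of -0.62, and leaving out JIB-04 replicate 2 one of -0.18. Ednra over Ednrb differed by -0.16 (exact permutation p = 0.8). Grk5 over Adrbk1, the gene of the receptor kinase GRK2, differed by 0.04 (exact permutation p = 0.7).

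The other genes of the pathways were read from lists of 121 genes, of which 109 were tested. As for the members, 0 of 109 passed the call, with a smallest adjusted p of 0.556 by limma. Estimates were above 0 for 51 and under 0 for 58, with a median of -0.01, the same as over all tested genes. At an unadjusted p under 0.05 there were 8, or 7.34% against 6.44% of all tested genes. All JIB-04 libraries lay above both vehicle libraries for 11 (10.1%, against 10.7% of tested genes) and under both for 9 (8.26%, against 12%). By DESeq2, 85 genes or 0.561% of 15151 were called, with no member among them, and edgeR and limma-voom called 0 genes.

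By role, the 7 tested adrenergic receptors had 3 estimates above 0 and 4 under, with a median of -0.02 (-0.076 when JIB-04 replicate 1 was left out, -0.057 for JIB-04 replicate 2 and -0.038 for JIB-04 replicate 3). Among the non-members, Adra1d was at 0.13, Adra2b at -0.08 and Adra2c at -0.09. In the 17 tested genes of G proteins and adenylyl cyclases the median was -0.00, with 8 above 0 and 9 under. Gnai3, a subunit of the inhibitory Gi protein, was above both vehicle libraries in all JIB-04 libraries, at 0.18. Adcy5, a main adenylyl cyclase of the heart, had 189 ± 11.1 CPM in JIB-04 hearts and 210 ± 14.5 CPM in vehicle hearts, with a log2 fold change of -0.15.

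The 14 receptor kinases, arrestins and RGS proteins, which switch receptor signals off, had 10 estimates above 0, 4 under and a median of 0.03. Arrb2, the gene of beta-arrestin 2, had 10.05, 12.5 and 14.2 CPM in JIB-04 hearts and 9.27 and 8.95 CPM in vehicle hearts (log2 fold change 0.38, limma adjusted p = 0.748). Rgs10, which shortens G protein signals, had 5.67, 7.31 and 7.87 CPM in JIB-04 hearts and 5.62 and 4.59 CPM in vehicle hearts (log2 fold change 0.38, limma adjusted p = 0.770). Both were above the vehicle libraries in all JIB-04 libraries.

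Among 22 Gq effectors, with 14 estimates above 0, 8 under and a median of 0.02, Prkcb, a protein kinase C gene, had the smallest p of all the pathway genes. It stood at 4.65, 5.04 and 5.54 CPM in JIB-04 hearts and 3.63 and 2.67 CPM in vehicle hearts (log2 fold change 0.56, limma adjusted p = 0.556). Prkd1, a protein kinase D gene, had 4.23, 4.18 and 3.75 CPM in JIB-04 hearts and 5.43 and 5.21 CPM in vehicle hearts (log2 fold change -0.32, limma adjusted p = 0.743). Prkcb, Arrb2 and Rgs10 are also expressed in leukocytes. The 8 macrophage markers summed to 116, 165 and 178 CPM in JIB-04 hearts and 118 and 87.4 CPM in vehicle hearts, so the sums overlapped. Of these markers, 7 had estimates above 0 and 1 under, with a median log2 fold change of 0.60, and none passed the call. In 5 of them (62.5%, against 10.7% of tested genes) every JIB-04 library lay above both vehicle libraries. The part of macrophages in the values of Prkcb, Arrb2 and Rgs10 was not tested.

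The 30 cAMP effectors and phosphodiesterases had 11 estimates above 0, 19 under and a median of -0.05. Pde4c, a cAMP phosphodiesterase, had 4.11, 3.70 and 3.58 CPM in JIB-04 hearts, against 5.99 and 5.01 CPM in vehicle hearts (log2 fold change -0.44, limma adjusted p = 0.621). Every JIB-04 library was under both vehicle libraries. Prkaca, the catalytic subunit of protein kinase A, was at -0.15.

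In the catecholamine list, 7 genes were tested, 1 with an estimate above 0 and 6 under, with a median of -0.19. Maob, a monoamine oxidase that degrades amines, had 27.3, 18.7 and 23.6 CPM in JIB-04 hearts and 29.5 and 33.4 CPM in vehicle hearts (log2 fold change -0.44, limma adjusted p = 0.748). All JIB-04 libraries were under both vehicle libraries. This list was also the one whose median moved most with the processing.

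Of 14 tested renin-angiotensin genes, 4 had estimates above 0 and 10 under, with a median of -0.08 (-0.015 when vehicle replicate 1 was left out, -0.049 for vehicle replicate 2 and -0.045 for JIB-04 replicate 2). The 2 genes in which every JIB-04 library lay above both vehicle libraries encode peptidases that trim angiotensin peptides. Anpep had 15.3, 14.97 and 18.7 CPM in JIB-04 hearts and 13.8 and 11.5 CPM in vehicle hearts (log2 fold change 0.34, limma adjusted p = 0.748), and the log2 fold change of Enpep was 0.29. Ren1, the renin gene, was not analysed here.

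The 6 tested endothelin genes had 3 estimates above 0, 3 under and a median of 0.02. The median was -0.023 without JIB-04 replicate 1, -0.011 without JIB-04 replicate 3, -0.011 without vehicle replicate 1 and -0.0039 without vehicle replicate 2. Edn3 had 114, 67.2 and 84.3 CPM in JIB-04 hearts, against 115 and 129 CPM in vehicle hearts (log2 fold change -0.48, SE 0.20, limma adjusted p = 0.770). All JIB-04 libraries were under both vehicle libraries, JIB-04 replicate 1 narrowly. JIB-04 replicate 2 was its lowest library, as for Edn1 and Ednra, and the log2 fold change without that library was -0.30. Ece1 was at 0.14, Ece2 at 0.20 and Ednrb at 0.10.

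**Figure D5:**
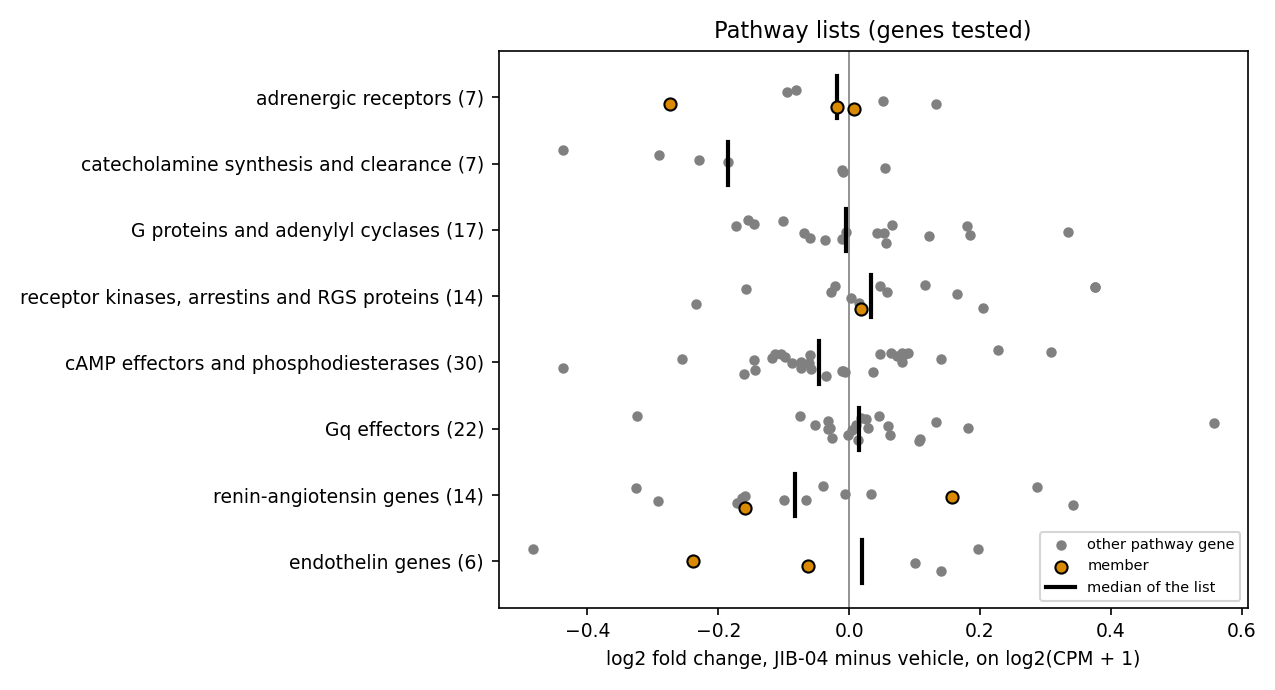
Log2 fold change, JIB-04 minus vehicle, of every tested gene of the pathway lists, 1 point per gene, with the members marked and a line at each list's median. List medians lie between -0.19 for the catecholamine genes and 0.03 for the receptor kinases, arrestins and RGS proteins, and no gene passed the call.

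The likeness of the members' profiles varied. By the root mean square difference of their centred log2(CPM + 1) values over the 5 libraries, Adra1b and Ednra were the closest at 0.047, followed by Adra1a and Edn1 at 0.066, Adrb1 and Ednra at 0.068, Adrb1 and Adra1b at 0.069 and Agtr1a and Edn1 at 0.078. The member nearest to Ace was Grk5, at 0.229. Agtr1a and Ace were the farthest apart at 0.490. By the same measure over 13543 tested genes with curated symbols, Ednra was most like Cpt1b, the muscle carnitine palmitoyltransferase, at 0.019, and the read-through row that shares its reads, ChkbCpt1b, at 0.017. Edn1 was most like Hcn4, a pacemaker channel gene, at 0.027 and Tpm2, a tropomyosin gene, at 0.032. Adrb1 was most like Dcun1d4 (0.010) and Itga7, a laminin receptor of muscle (0.012).

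Ace was most like Srpx2 (0.012) and the cytokine gene Lif (0.022), the second of these at a mean of 0.511 CPM. The nearest to Agtr1a were Cyp26b1, which degrades retinoic acid (0.034), and Tesc (0.050). Those of Adra1a were Ccrl2 (0.031) and Sbk1 (0.038), of Adra1b Zfand1 (0.021) and Zfp2 (0.022), and of Grk5 Ppm1m (0.010) and BC031181 (0.011). These likenesses rest on 5 libraries and are given as a description with no test.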

How the data were processed

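Trizol RNA was made into stranded mRNA libraries, per the labels' protocols. Per the submitters' processing notes, which give no role or order, the tools were TopHat2 2.0.12, featureCounts, Subread, edgeR, Picard 1.127 and FastQC 0.11.2, with build mm10, and the use of strand in counting is not given in the sources used here. The authors deposited 1 value per gene and library under the header CPM, a signal made from read counts scaled by library size. It was not taken as plain CPM, since the columns summed to between 954981 and 1046902. Each was a whole multiple of what 1 read was worth, so whole reads were recovered (100% within 0.01 of a whole number). The value of 3 reads was 0.0804 to 0.0977 CPM, for counting error only.

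Of 19061 gene rows (1 blank row was dropped), 14414 passed edgeR's filterByExpr on recovered reads (minimum 10, total 15). The comparison, JIB-04 (n = 3) against vehicle (n = 2), was made on log2(CPM + 1) by limma 3.58.1 with its trend option (R 4.3.3), 3 residual degrees of freedom and Benjamini-Hochberg adjustment over all tested genes. The alternatives were edgeR 4.0.16, limma-voom and DESeq2 1.42.0 on recovered reads, other pseudocounts, filters and scalings, each library left out and a replicate block. The limma, edgeR, limma-voom and DESeq2 fits were tested on simulated counts. That test did not cover the other steps, and its spread was not set to that of the members. Ratios used exact two-sided permutation over 10 splits. Lengths are the union of exons of protein-coding transcripts in GENCODE M21 (GRCm38), and 180 of 182 listed genes had one. Genes named are the members, their ratio partners, up to 4 tested genes with the smallest p from each pathway list, and the 2 genes nearest to each member. Agt, Agtr2, Ren1, the transgene's gene and the genes of the closing observations were named outside this rule. Values of 2 genes of the lists, and the ratios that use them, are not reported here. The members, lists and tests were chosen with earlier results of these data known. Batches could not be examined, because the labels give none.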

Additional observations from a re-analysis of the deposited data

How the results depend on the processing

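Across 18 settings no member was called, and the adjusted p of a member was at or above 0.155. The count of called genes, 0 in limma, edgeR and limma-voom, was 85 by DESeq2 and 0 to 29 with 1 library left out, the 29 without JIB-04 replicate 1. The cause was not tested. Adra1a and Edn1 kept their sign in every setting, at -0.45 to -0.098 and -0.36 to -0.064 with 1 library left out. With 1 library left out, the log2 fold change was -0.091 to 0.075 for Adrb1, -0.12 to 0.13 for Adra1b, -0.34 to 0.066 for Agtr1a, -0.0040 to 0.32 for Ace, -0.036 to 0.073 for Grk5 and -0.18 to 0.063 for Ednra. In the same runs it was -0.019 to 0.31 for Adra1d, -0.052 to 0.023 for Adrbk1, -0.032 to 0.21 for Ednrb and -0.42 to 0.064 for Slc22a3. With plain CPM scaling, which shifts the median of all genes by 0.047, Adrb1 was at 0.032 and Adrbk1 at 0.031.

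The median of the catecholamine list was -0.056 with no filter, which adds genes, -0.32 by limma-voom and -0.22 to -0.0018 with 1 library left out. With 1 library left out, medians were -0.026 to 0.079 for G proteins and adenylyl cyclases, -0.0085 to 0.092 for receptor kinases, arrestins and RGS proteins, -0.064 to -0.0011 for cAMP effectors, -0.076 to -0.018 for adrenergic receptors, -0.093 to -0.015 for renin-angiotensin genes and -0.023 to 0.016 for endothelin genes. With plain CPM scaling they were 0.0047 for cAMP effectors and 0.064 for Gq effectors. Ratio differences with 1 library left out were -0.62 to -0.18 for Edn1 over Ece1, -0.34 to 0.064 for Agtr1a over Agtr1b (a ratio the pseudocount sets), -0.0014 to 0.070 for Grk5 over Adrbk1 and -0.34 to 0.096 for Ednra over Ednrb. The mean level of Adra1a was 10.8 CPM per kb over its longest transcript.

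Samples of the 2 groups share the replicate numbers 1 and 2, and no pairing is stated in the labels. Their deviations from the group means correlated at -0.13 in both same-numbered pairs. With 2 vehicle libraries, whose deviations mirror each other, these values cannot tell whether the numbers mark pairs. With a replicate block, JIB-04 replicate 3 forms a block of its own and drops out of the contrast. That fit called 0 genes, gave -0.014 as the median of the cAMP effectors, and changed no call of a member, with Adra1a at -0.28 and Agtr1a at -0.21.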

Other observations

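Genes of noradrenaline synthesis and transport had few reads. Th and Dbh, the enzymes of noradrenaline synthesis, whose nerve cell bodies lie outside the heart, had 0 to 2 and 1 to 8 reads in a library. Slc6a2, the noradrenaline transporter of the same nerves, had 0 to 3 reads. Cma1 and Mcpt4, mast cell chymases that in some species form angiotensin II without Ace, had 0.306 ± 0.102 and 0.300 ± 0.111 CPM in JIB-04 hearts (SD, n = 3), against 0.498 ± 0.474 and 0.509 ± 0.535 CPM in vehicle hearts (SD, n = 2). Vehicle replicate 1 held the highest value of both chymases, 0.833 CPM for Cma1 and 0.887 CPM for Mcpt4. Nr3c2, the mineralocorticoid receptor gene, had 28.6, 14.9 and 13.8 CPM in JIB-04 hearts and 22.7 and 22.0 CPM in vehicle hearts, so that the groups overlapped.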
